A study of Triticum aestivum with 24 samples.

Results

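Warming was added to elevated CO2 in winter bread wheat (Triticum aestivum, cultivar Alana), and leaf transcripts were compared between plants that had both treatments and plants that had CO2 alone. The comparison used 6 of the 24 libraries of the study, chosen by their labels: 3 from plants grown at 700 ppm CO2 (called CO2) and 3 from plants grown at 700 ppm CO2 with temperatures of up to 31 °C (called CO2+temperature). Both groups therefore shared the cultivar and the elevated CO2, and neither was droughted. The other 18 libraries came from control, drought (soil water content of 25 ± 5%) and temperature plants and from the remaining combinations, with 3 libraries in each group. Leaves 3 and 4 of each main tiller were sampled as flowering began (growth stage 61). The labels call the 3 libraries of a group biological replicates and do not say whether each came from separate plants. The p-values therefore measure only spread between libraries, estimated for each gene over all 24 libraries together.

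In leaves of plants such as wheat, carbon is fixed by Rubisco, an enzyme that also reacts with oxygen. More CO2 favours carboxylation over that side reaction, and leaves that fix more carbon often accumulate sugars and starch. Warming speeds development and respiration, makes Rubisco activase less stable, and at higher temperatures induces heat shock proteins, chaperones that bind unfolded proteins. Bread wheat carries 3 related subgenomes, A, B and D, so that many genes have close copies on the chromosomes of one group. The deposited table pairs its gene identifiers with no names or functions, and 0 of them matched the reference gene table. For the same reason the leaf label could not be checked against marker genes. The genes below are therefore known only by identifier, in which the characters after the species prefix give the chromosome and the last digits give the order along it.

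Levels are in FPKM, fragments scaled by the authors to transcript length and to the fragments mapped in the library. Changes are differences of log2(FPKM + 1), which understate the change of low genes. A gene was called at a Benjamini-Hochberg adjusted p under 0.05 from limma, fitted to all 24 libraries and 45359 genes. In the 6 libraries, 62553 to 63280 of 105200 genes lay above 0. The absolute depth is unknown. The value of 1 fragment, read from the steps among values under 0.3 FPKM, ranged from 1 to 1.116 relative to CO2 replicate 1. Library scaling hardly differed, with median-ratio factors (a library's typical ratio to the geometric mean library) of 1.044 to 1.047. In the temperature+drought and CO2+drought libraries the factors were 0.8642 to 0.8846, so comparisons with those groups used values divided by the factors, while levels are printed as deposited.

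The 3 libraries of each group were not equally far apart. In CO2+temperature, replicates 1 and 2 differed by at least 2-fold for 242 genes with at least 5 FPKM in the higher of them. Replicate 3 lay between them for 95% of these genes, at a median position of 0.523 of the way from one to the other in FPKM (quartiles 0.411 and 0.632). In the CO2 group, replicate 3 lay between replicates 1 and 2 for 95.8% of 95 such genes, at a median position of 0.551 (quartiles 0.427 and 0.638). Among genes of at least 20 FPKM, CO2+temperature replicate 3 departed from the mean of replicates 1 and 2 by 0.0707 on the log2 scale, where those differed by 0.197 (robust SDs, ratio 0.359). The ratio was 0.558 in the CO2 group, and 3 independent libraries of equal spread would give 0.866. One library of this kind was found in 7 of the 8 groups. In the control group the highest share of genes in between was 81.9% and the lowest ratio 0.647. No source used here says how these libraries arose, and whether they are independent of the other 2 libraries of their group was not tested. The SEs and p-values from 24 libraries count each of them as a replicate and would be too small if they are not independent. Leaving them out keeps the 2 libraries of a group that lie farther apart. The SEs and p-values from 17 libraries could therefore be too large if all 3 are independent. Counts are therefore given for all 24 libraries and again for the 17 libraries left when the intermediate one of each of the 7 groups is left out.

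**Figure D1:**
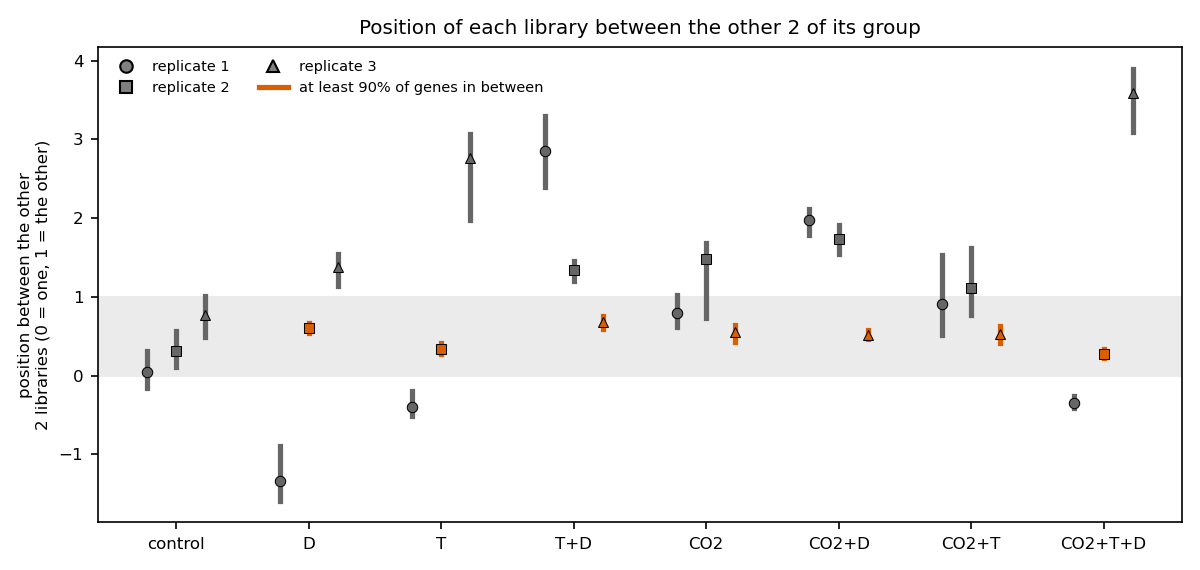
Position of each library between the other 2 libraries of its group, in FPKM, over genes that differ at least 2-fold between those 2; symbols are medians, bars run from the lower to the upper quartile, and the grey band marks values in between (D drought, T temperature). Replicate 3 of CO2 (0.551) and of CO2+temperature (0.523) sit near the middle with short bars. In the other 5 treated groups 1 library has its whole bar in the band, at medians from 0.274 to 0.686.

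Adding temperature under elevated CO2 changed 10601 of the 45359 genes tested (23.4%) with all 24 libraries, 4414 higher (9.73%) and 6187 lower (13.6%). With the 17 libraries it changed 1945 genes (4.29%), 858 higher (1.89%) and 1087 lower (2.4%). Because the leaf was sampled in bulk, fewer cells of a type and less RNA per cell cannot be told apart. Most changes were small: the median size among called genes was 0.514 in log2 units. At a size of 1 or more, 466 genes rose (1.03%) and 776 fell (1.71%); with 17 libraries 313 rose (0.69%) and 347 fell (0.765%). Falls outnumbered rises at that size, but the order turned for the largest changes. At 2 or more on the log2 scale there were 103 rises and 71 falls, at 3 or more 28 and 14, and at 4 or more 16 and 1. With 17 libraries these counts were 85 and 49, 28 and 13, and 17 and 1. For temperature alone against control, called genes at 2 or more were 18 rises and 166 falls, and at 4 or more 3 and 6; with 17 libraries those at 2 or more were 11 and 141. The difference between these counts was not tested. These 2 comparisons share no library, but each takes a gene's spread from all libraries in the fit. The total called under CO2 was 16384 when only the CO2 and CO2+temperature libraries were fitted. It was 21975 with library quality weights, which were highest for the intermediate library within each group that had one.

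**Figure D2:**
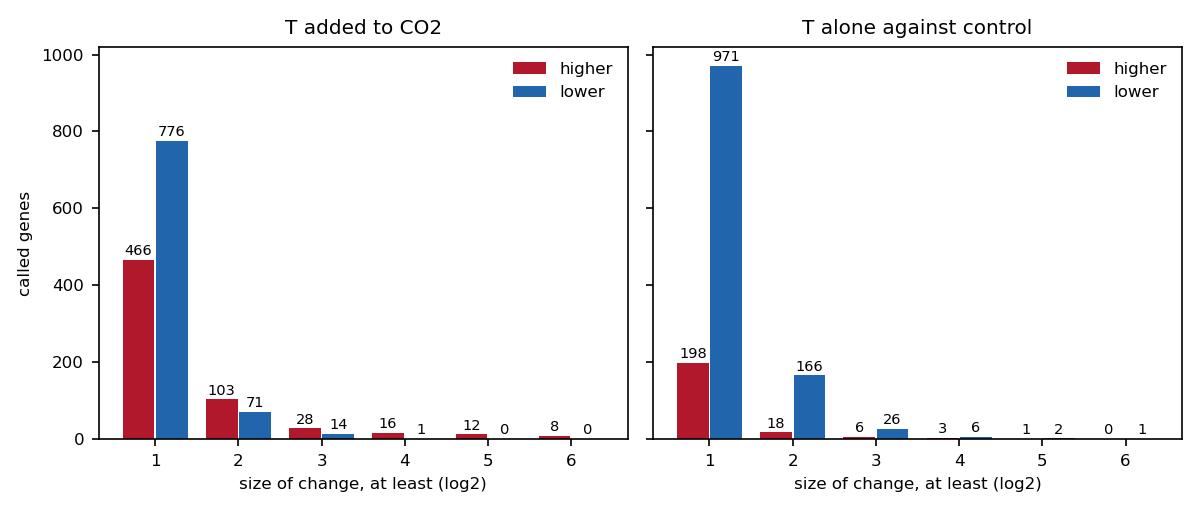
Called genes (vertical axis) that changed by at least the log2 amount on the horizontal axis, higher in red and lower in blue, for temperature added to CO2 (left) and temperature alone against control (right), each from all 24 libraries. Under CO2 the 103 rises of at least 2 outnumber the 71 falls, while at ambient CO2 the 18 rises stand against 166 falls.

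The largest rise was that of TraesCS5B02G257000 on chromosome 5B. It stood at 0.209, 0.299 and 0.334 FPKM in CO2 and at 232, 371 and 299 FPKM in CO2+temperature, so that the groups were far apart. Its log2 change was 7.85 (SE 0.26; adjusted p = 1e-13, limma with Benjamini-Hochberg adjustment), and 7.88 with 17 libraries (adjusted p = 1e-06). In the other groups it stood at 2.07 FPKM or less in each unwarmed library as deposited. Temperature alone gave 3.94, 3.44 and 2.1 FPKM, temperature+drought 7.64, 12.9 and 10.4 FPKM, and all 3 treatments 41.3, 58.7 and 96.4 FPKM. Among the warmed groups both with elevated CO2 lay above both without.

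TraesCS6A02G374400 on chromosome 6A had the second named rise, from 0.663, 0.228 and 0.0519 FPKM in CO2 to 219, 124 and 171 FPKM in CO2+temperature. The log2 change was 7.02 (SE 0.80; adjusted p = 4.6e-06, limma with Benjamini-Hochberg adjustment), and 6.86 with 17 libraries (adjusted p = 0.0097). Its level under temperature alone differed widely between libraries, at 5.27, 108 and 322 FPKM. With drought as well it was low in warmed leaves, at 0.106, 0.209 and 0.101 FPKM in temperature+drought and 3.88, 3.31 and 1.28 FPKM under all 3 treatments.

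The largest fall was that of TraesCS7B02G120900 on chromosome 7B. Its 3 CO2 libraries stood at 381, 503 and 429 FPKM and its CO2+temperature libraries at 15.1, 37.7 and 26.8 FPKM. The log2 change was -4.07 (SE 0.45; adjusted p = 3.3e-06, limma with Benjamini-Hochberg adjustment), and -4.14 with 17 libraries (adjusted p = 0.0078). High levels were also seen in CO2+drought (368, 173 and 278 FPKM), and temperature+drought stood at 53.8, 169 and 114 FPKM. The other unwarmed groups, control (69.3, 60.3 and 18.3 FPKM) and drought (14.1, 17.8 and 21 FPKM), overlapped the CO2+temperature group.

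TraesCS7D02G215700 on chromosome 7D fell from 108, 157 and 128 FPKM in CO2 to 4.71, 11.7 and 7 FPKM in CO2+temperature. The log2 change was -3.97 (SE 0.39; adjusted p = 8.4e-07, limma with Benjamini-Hochberg adjustment), and -3.94 with 17 libraries (adjusted p = 0.0046). As for the 7B gene, CO2+drought was also high (129, 77.3 and 107 FPKM), and control stood at 10.1, 9.01 and 3.22 FPKM. No source used here says whether the 7B and 7D genes are copies of each other.

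**Figure D3:**
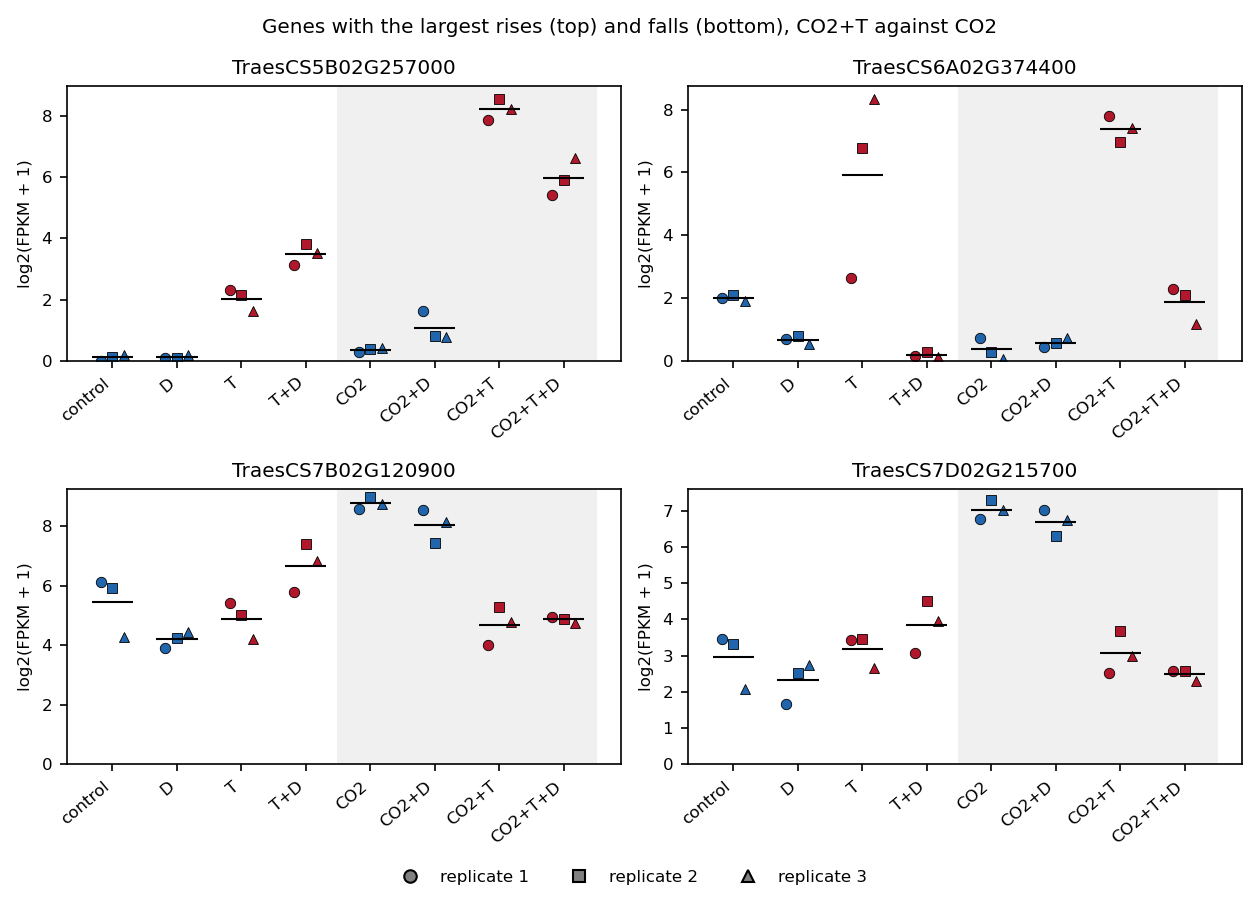
Levels of the 4 genes as log2(FPKM + 1) in each library of the 8 groups (D drought, T temperature; grey background, elevated CO2; red, warmed; lines, group means). The 2 genes at the top are high in CO2+temperature, at 124 FPKM or more, and at most 0.663 FPKM in CO2; the 2 at the bottom are high in CO2 and CO2+drought and at most 37.7 FPKM in CO2+temperature.

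The balance of rises and falls differed with the level of the gene. Genes were ordered by their mean over all 24 libraries and divided into 5 equal bins. In the lowest bin (means of 0.131 to 1.62 FPKM), 991 genes rose and 587 fell, 17.4% called in all, and the median change of the bin was 0.05. In the highest bin (13.8 FPKM and above), 782 rose and 2268 fell, 33.6% in all, with a median of -0.13. From low to high, the 3 middle bins had medians of 0.05, -0.01 and -0.08. With 17 libraries, 189 rose and 113 fell in the lowest bin and 195 and 418 in the highest. Only genes that reached a minimum level in some libraries were tested. A gene of low mean can therefore have entered the lowest bin through libraries of either group compared. How far such entry shaped the balance in that bin was not tested. Among the most abundant transcripts, rises outnumbered falls. Of the 100 genes with the highest means (596 FPKM or more), 43 rose and 18 fell, with a median change of 0.17, and with 17 libraries 26 rose and 3 fell. That order includes warmed libraries, so a gene raised by warming can enter through them. Ordered instead by the 3 control libraries, which are not in the comparison, 36 of the top 100 rose and 22 fell, with a median of 0.09, and with 17 libraries 18 rose and 3 fell. The 100 genes ordered over all libraries made up 15%, 16.2% and 15.7% of the summed FPKM in the CO2 libraries and 17.8%, 17.8% and 17.7% in the CO2+temperature libraries. The 100 ordered by control made up 14.7%, 15.8% and 15.4% in CO2 and 16.6%, 16.6% and 16.5% in CO2+temperature. Of the top 1000 genes over all libraries, 162 rose and 306 fell, but with 17 libraries 69 and 65. FPKM measure relative levels, so these changes are relative to the other transcripts.

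Called genes were spread over the 21 chromosomes. The share of tested genes that rose ranged from 8.64% (3D) to 11.3% (1B), around 9.73% over all genes, and the share that fell from 11% (1B) to 14.6% (3A), around 13.6%. Chromosome 1B alone had more rises (222) than falls (216). The subgenomes A, B and D were close to each other, with 9.83%, 9.88% and 9.49% of genes higher and 14.1%, 13.1% and 13.7% lower. These shares carry no test.

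Some large changes lay side by side. Neighbouring tested genes on 1 chromosome that all changed by at least 1 in the same direction formed 9 runs of 3 or more genes among the rises, holding 36 genes (7.73% of the large rises). Among the falls they formed 9 runs, holding 32 genes (4.12%). The rises held 1 run on each of chromosomes 2A, 2B and 2D, and runs of rises also lay on 3A, 3B and 3D. The falls held 1 run on each of 5A, 5B and 5D. How often such runs arise by chance was not assessed, and the deposited values do not show whether neighbours are copies of one gene between which fragments were divided.

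The longest run of rises held 8 tested genes on chromosome 3B, from TraesCS3B02G130300 to TraesCS3B02G131300, with changes of 1.42 to 2.56 and a median of 2.11. Their summed level was 9.14, 8.99 and 11.1 FPKM in CO2 and 66.8, 84 and 72.5 FPKM in CO2+temperature. The first gene of the run stood at 2.42, 3.09 and 3.63 FPKM in CO2 and at 20.8, 27.3 and 20.4 FPKM in CO2+temperature. The run was also high in both groups that combined drought with 1 other treatment, at 74.4, 102 and 83.6 FPKM in CO2+drought and 92.7, 60.3 and 65.1 FPKM in temperature+drought. Control and drought libraries held 2.97 to 5.96 FPKM. The other temperature comparisons share no library with the one that defined the run, but each takes a gene's spread from all libraries in the fit. Among them, temperature alone raised 4 of the 8 genes (9.04% of all genes rose) and temperature added to drought raised 7 (22.6%). Temperature added to CO2 and drought lowered 4 of the 8 (22.7%) and raised 0. With 17 libraries these counts were 1, 7 and 2, where 2.18%, 12.6% and 11.9% of all genes passed. Under all 3 treatments the libraries were far apart, with sums of 90.4, 73.1 and 22.3 FPKM.

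Among falls, runs of 5 tested genes on chromosomes 5D and 5B were the longest. The one with the larger median change held 5 adjoining genes on 5D, TraesCS5D02G227300 to TraesCS5D02G227700, with changes of -3.35 to -2.07 and a median of -2.86. Their summed level was 150, 250 and 197 FPKM in CO2 and 13.1, 34.7 and 24 FPKM in CO2+temperature. The last gene of the run accounted for more than any other, at 89, 126 and 104 FPKM in CO2 and 8.39, 17.8 and 12.6 FPKM in CO2+temperature. Control libraries held 37.2, 32.8 and 10.2 FPKM over the run, and CO2+drought libraries 208, 109 and 167 FPKM. Temperature alone changed 0 of the 5 genes (16.6% of all genes), with a median of 0.16, while temperature added to CO2 and drought lowered all 5 (22.7% of all genes fell), with a median of -3.32. Temperature added to drought at ambient CO2 raised 3 of the 5 (22.6% of all genes rose), with a median of 1.55. With 17 libraries these counts were 0, 5 and 1, where 4.61%, 11.9% and 12.6% of all genes passed.

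**Figure D4:**
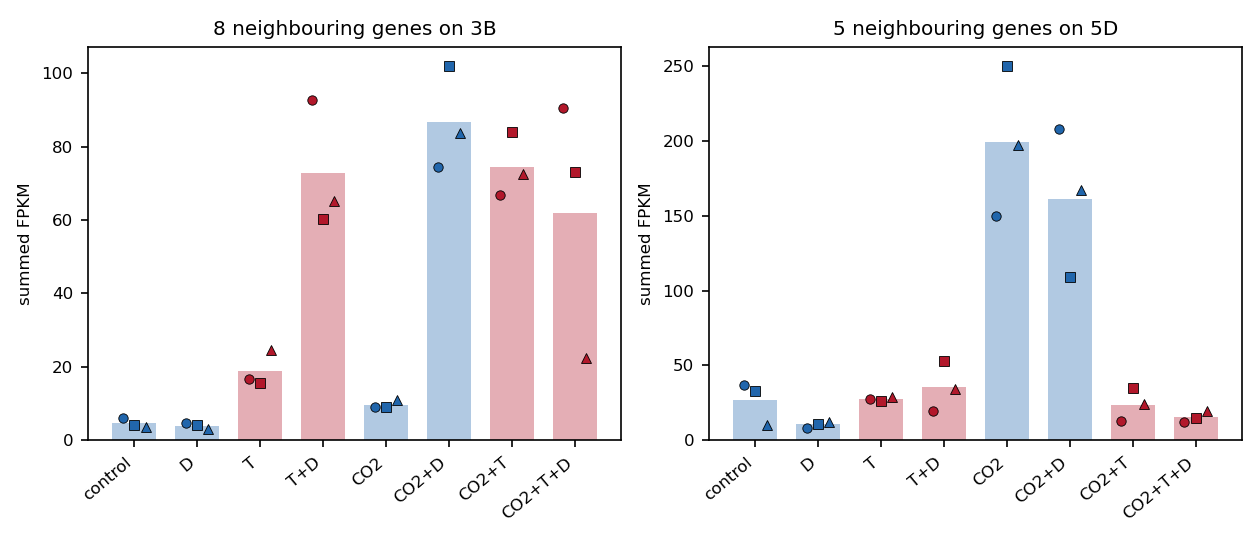
Summed FPKM of the 8 neighbouring genes on chromosome 3B (left) and the 5 on chromosome 5D (right) in each library of the 8 groups (D drought, T temperature; bars are group means, circles, squares and triangles are replicates 1, 2 and 3; red, warmed). The 3B genes are at 66.8 FPKM or more in CO2+temperature and at most 11.1 in CO2; the 5D genes are at 150 or more in CO2 and at most 34.7 in CO2+temperature.

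A few genes were listed at 0 in one group. In CO2, 11 genes were listed at 0 in all 3 libraries and stood at 1 FPKM or more in all 3 CO2+temperature libraries, with means of 1.62 to 54.1 FPKM, and 5 of these 11 lay on chromosome 3D. The highest was TraesCS3D02G045500, the first gene of a run of 4 on chromosome 3D with a median change of 2.79, at 33.9, 74.4 and 54 FPKM in CO2+temperature. It was under 0.5 FPKM in every library of the other groups except under all 3 treatments, where it stood at 9.27, 7.19 and 4.56 FPKM. Of the 11 genes, 8 were also listed at 0 in the 3 control libraries and 3 in the 3 temperature libraries, and 0 reached 1 FPKM in all 3 temperature libraries. Only TraesCS3D02G045500 reached 1 FPKM in all 3 libraries with all 3 treatments. In the other direction there was 1 gene, TraesCS6A02G319600, at 2.51, 1.7 and 2.01 FPKM in CO2 and listed at 0 in CO2+temperature. That count was 4 without CO2+temperature replicate 1 and 2 without replicate 2. TraesCS6A02G319600 is a low gene that reached 9.34 FPKM in 1 drought library, and its call (adjusted p = 0.0029, limma with Benjamini-Hochberg adjustment) was lost with 17 libraries (adjusted p = 0.11).

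Whether warming acted alike with and without elevated CO2 was tested by the interaction of temperature and CO2 among undroughted plants, (CO2+temperature minus CO2) minus (temperature minus control). The interaction was called in 7888 genes (17.4%), 3061 positive (6.75%) and 4827 negative (10.6%), and in 992 genes (2.19%) with 17 libraries, 404 positive (0.891%) and 588 negative (1.3%). It shares the CO2 and CO2+temperature libraries with the comparison above. With library quality weights, which favour the intermediate libraries, the interaction was called in 19591. TraesCS5A02G257700 on chromosome 5A stood at 0.196, 0.0364 and 0.133 FPKM in CO2, at 84.8, 160 and 123 FPKM in CO2+temperature, and at most at 0.671 FPKM in any control or temperature library. The interaction came to 6.33 (SE 0.44; adjusted p = 5.5e-09, limma with Benjamini-Hochberg adjustment), and 6.29 with 17 libraries (adjusted p = 0.00031). TraesCS3B02G010200 had a still larger interaction (6.93), but its change with temperature under CO2 was 0.02 on the log2 scale (adjusted p = 0.88, limma with Benjamini-Hochberg adjustment). It stood at 124, 119 and 122 FPKM in control and at most at 0.0484 FPKM in any of the other 21 libraries, so its interaction comes from the control libraries.

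Among negative interactions, TraesCS5D02G227500, a member of the 5D run, stood at 12.8, 30.2 and 19.6 FPKM in CO2 and at 0.203, 1.59 and 1.68 FPKM in CO2+temperature. At ambient CO2 it was low throughout, at 1.24, 1.13 and 0.165 FPKM in control and 3.07, 1.95 and 2.38 FPKM under temperature. The interaction came to -4.31 (SE 0.61; adjusted p = 8.5e-05, limma with Benjamini-Hochberg adjustment; adjusted p = 0.02 with 17 libraries). TraesCS5A02G219300 on chromosome 5A had an interaction of -4.25 (SE 0.60; adjusted p = 8.5e-05, limma with Benjamini-Hochberg adjustment; adjusted p = 0.033 with 17 libraries). It fell from 44.2, 91.3 and 65.7 FPKM in CO2 to 3.02, 3.79 and 3.77 FPKM in CO2+temperature, while the control (3.61, 2.58 and 1.74 FPKM) and temperature libraries (3.33, 5.21 and 2.84 FPKM) overlapped.

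**Figure D5:**
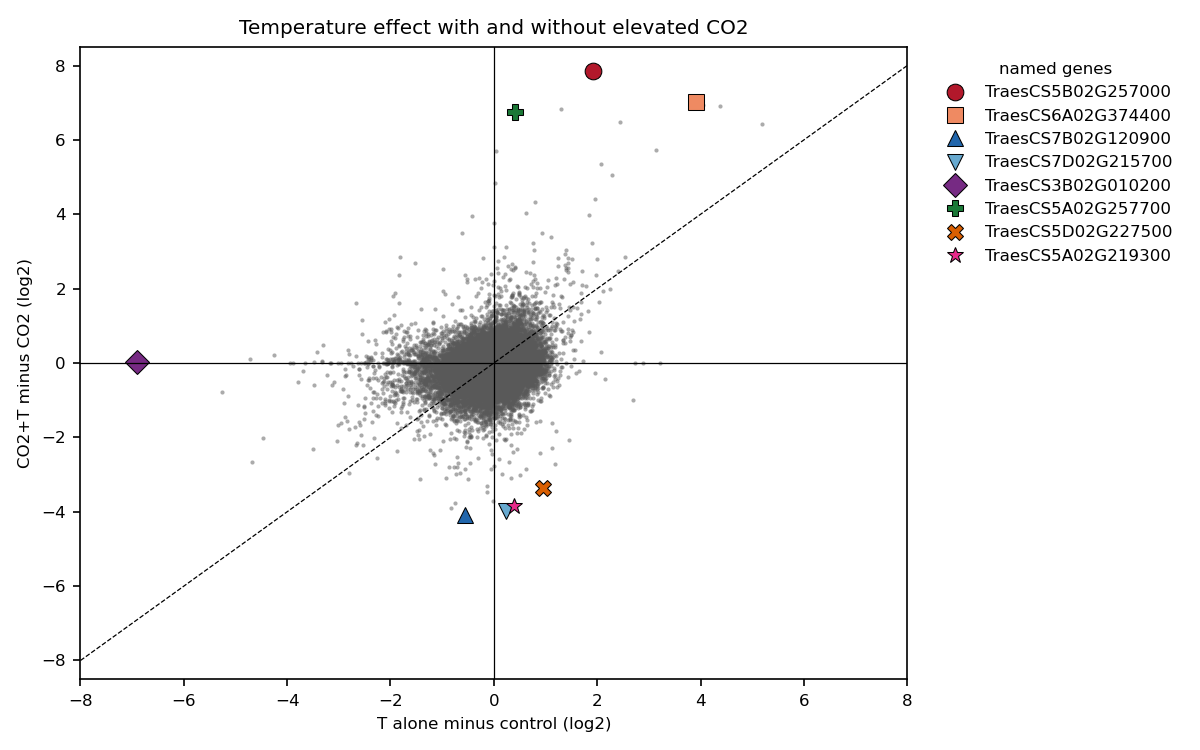
Log2 change with temperature under elevated CO2 (vertical) against the change with temperature alone (horizontal) for each of the 45359 genes tested, with the dashed line marking equal change; large symbols are the genes named for the 2 tests. The rises of TraesCS5B02G257000 (7.85 against 1.92) and TraesCS5A02G257700 (6.74 against 0.41) lie far above the line.

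The effect of warming under CO2 was then set beside its effect in the 3 other backgrounds. The 4 comparisons share no library, but each takes a gene's spread from all libraries in the fit. Their calls, and so the overlaps between them, are therefore not independent. Temperature alone changed 7525 genes (16.6%; with 17 libraries 2089, 4.61%), and 2529 genes were called in both it and temperature added to CO2, which is 23.9% of the genes called under CO2 and 33.6% of those called for temperature alone. Of the 2529, 1663 changed in the same direction (65.8%). Of the 866 that changed in opposite directions, 715 fell under CO2 and rose at ambient CO2. With 17 libraries 256 genes were called in both and 234 had the same direction (91.4%). Across all tested genes the changes correlated at r = 0.223 (Spearman's rho 0.141), a description over genes, which are not independent.

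Temperature added to CO2 and drought changed 19155 genes on rescaled values (42.2%; with 17 libraries 9171, 20.2%), and 6240 of them were also called under CO2 without drought, 58.9% of the one list and 32.6% of the other. Here 5305 had the same direction (85%), of which 2026 rose and 3279 fell in both. With 17 libraries the share was 93.5% of 993 genes. Scaling turned the balance of the droughted comparison, with 8842 genes higher (19.5%) and 10313 lower (22.7%) rescaled and 16709 and 6433 as deposited. Temperature added to drought at ambient CO2 changed 19697 genes (43.4%; with 17 libraries 10423, 23%), 10272 higher (22.6%) and 9425 lower (20.8%) rescaled and 5931 and 16779 as deposited. Of the 5545 genes called in it and under CO2, 2599 had the same direction (46.9%, or 52.9% as deposited). With 17 libraries it was 495 of 810 (61.1%). Correlations of the changes across genes were 0.395 with CO2 and drought and 0.03 with drought alone as the other background.

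Some genes changed with warming in every background. Of the 45359 genes tested, 1185 were called in all 4 comparisons. Most of these, 710, changed in mixed directions, while 192 rose in each comparison and 283 fell in each. Their median changes under CO2 were 0.77 and -0.70. With 17 libraries 41 of the same tested genes rose and 33 fell in all 4. Changes of at least 1 in each comparison were met by 25 of the 192 and 23 of the 283. TraesCS4D02G134900 on chromosome 4D had the largest smallest change among the rises. It went from 25.9, 26.6 and 26.3 FPKM in CO2 to 2200, 2530 and 2370 FPKM in CO2+temperature, a difference of 6.44 in log2 units (SE 0.48; adjusted p = 2.6e-08, limma with Benjamini-Hochberg adjustment; adjusted p = 0.001 with 17 libraries). The changes in the other backgrounds were 5.20 for temperature alone, 6.07 with drought and 8.80 with CO2 and drought. Its interaction of temperature and CO2 without drought was 1.24 and did not pass (adjusted p = 0.22, limma with Benjamini-Hochberg adjustment). TraesCS6A02G271300 on chromosome 6A took the same place among the falls. It stood at 6.86, 6.97 and 6.05 FPKM in CO2 and at 0.749, 0.827 and 0.544 FPKM in CO2+temperature, a difference of -2.16 in log2 units (SE 0.21; adjusted p = 8.6e-07, limma with Benjamini-Hochberg adjustment; adjusted p = 0.0049 with 17 libraries). Its falls in the other backgrounds were of like size, -2.65, -2.51 and -2.16 in the same order.

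The temperature effect under CO2 differed between undroughted and droughted plants in 9277 genes (20.5%), 4886 positive (10.8%) and 4391 negative (9.68%) on rescaled values, and 2979 and 10003 as deposited. With 17 libraries 1799 genes were called (3.97%). This test again shares the CO2 and CO2+temperature libraries with the main comparison. TraesCS6D02G358900 on chromosome 6D rose from 6.08, 3.02 and 3.72 FPKM to 274, 154 and 216 FPKM when temperature was added to CO2. In droughted plants its CO2 libraries stood at 3.9, 24.9 and 14 FPKM and those with temperature at 3.44, 2.44 and 1.53 FPKM, and the difference between the 2 effects was 7.43 (SE 1.14; adjusted p = 0.00012, limma with Benjamini-Hochberg adjustment; adjusted p = 0.039 with 17 libraries). TraesCS6B02G412100 on chromosome 6B had a difference of 6.96 (SE 1.14; adjusted p = 0.00023, limma with Benjamini-Hochberg adjustment; adjusted p = 0.049 with 17 libraries). It stood at 0.588, 0.313 and 0.314 FPKM in CO2, 171, 85.5 and 128 FPKM in CO2+temperature, and between 0.26 and 1.01 FPKM in the droughted libraries with CO2. In the opposite direction, TraesCS1B02G434600 on chromosome 1B went from 14.8, 14.9 and 16.5 FPKM in CO2 to 3.16, 4.28 and 4.34 FPKM in CO2+temperature. In droughted plants it went from 0.181, 0.569 and 0.787 FPKM to 2.65, 9.59 and 28.4 FPKM, a difference between effects of -4.42 (adjusted p = 0.00014, limma with Benjamini-Hochberg adjustment; adjusted p = 0.035 with 17 libraries). TraesCS1D02G413300 on chromosome 1D had a difference of -4.80 (SE 1.01; adjusted p = 0.002, limma with Benjamini-Hochberg adjustment). Its libraries under all 3 treatments were widely spread (0.662, 13.8 and 45.2 FPKM), and its call was lost with 17 libraries (adjusted p = 0.14).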

How the data were processed

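The authors deposited FPKM for 105200 genes in 24 libraries, with 1 column per library; 6 columns (temperature+drought, CO2+drought) lie on a lower scale. The submitters' processing notes list, without roles, Trim Galore 0.4.1, HISAT2, Cuffdiff and DESeq2; no source used here gives the genome build or annotation. Genes reaching 1 FPKM in 3 or more libraries entered the tests as log2(FPKM + 1) in limma 3.58.1 (R 4.3.3), with 1 coefficient per group and a mean-variance trend. Tests were two-sided, with Benjamini-Hochberg adjustment over all 45359 genes. The fit was tested on simulated independent libraries with equal spread in every group and changes planted in genes of higher level. It recovered 49.3% of changes of 0.5 on the log2 scale, 86.6% of 1 and 100% of 2. Those data held no intermediate libraries and no unequal spread, so they cannot show how the fit behaves with either.

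Named genes were at most 2 per direction and comparison, by size of change, if called, averaging 5 FPKM or more in the higher group and with no overlap of libraries. For interactions the minimum applied to 1 group. For genes listed at 0, 1 per direction was named by mean; for genes called in all 4 backgrounds, 1 per direction by its smallest change; for runs, the first and last gene. Gene lists held 0 genes, since no identifier matched a name. Comparisons, rules and lists were chosen with earlier results of these data known, and the 17-library fit and the ordering by control libraries after the data were seen. FPKM carry no counts, so no counting interval was computed. Fragments of near-identical copies may have been divided between genes, which leaves the level of a single copy uncertain.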

Additional observations from a re-analysis of the deposited data

Results flagged for a closer look

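The effect of temperature under CO2 differed from another temperature effect, by the test of the difference itself, for these named genes (limma, Benjamini-Hochberg adjusted p under 0.05 with 24 libraries). The genes were named by rules that used the same CO2 and CO2+temperature libraries, some by the size of the difference itself. The tests are therefore not independent of that choice. Against the effect at ambient CO2, positive differences were found for TraesCS3B02G010200 (6.93, from the control libraries), TraesCS5A02G257700 (6.33), TraesCS5B02G257000 (5.94), TraesCS3D02G045500 (5.67) and TraesCS6B02G412100 (4.03). Negative ones were found for TraesCS5D02G227500 (-4.31), TraesCS5A02G219300 (-4.25), TraesCS7D02G215700 (-4.20), TraesCS7B02G120900 (-3.51) and TraesCS6A02G319600 (-1.73). With 17 libraries TraesCS6B02G412100, TraesCS7B02G120900 and TraesCS6A02G319600 no longer passed (adjusted p = 0.18, 0.073 and 0.26). TraesCS6B02G412100 stood at 7.45, 152 and 445 FPKM under temperature alone, which overlapped CO2+temperature (171, 85.5 and 128 FPKM). Its control libraries (16, 16.4 and 11 FPKM) lay above its CO2 libraries (0.588, 0.313 and 0.314 FPKM).

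Against the effect in plants with CO2 and drought, positive differences were found for TraesCS6D02G358900 (7.43), TraesCS6B02G412100 (6.96), TraesCS6A02G374400 (5.80), TraesCS5A02G257700 (3.51), TraesCS3D02G045500 (3.23) and TraesCS5B02G257000 (3.07). Negative ones were found for TraesCS1D02G413300 (-4.80), TraesCS1B02G434600 (-4.42) and TraesCS4D02G134900 (-2.36). With 17 libraries TraesCS6A02G374400, TraesCS1D02G413300 and TraesCS4D02G134900 no longer passed (adjusted p = 0.085, 0.14 and 0.25).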

How the results depend on the processing

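In the comparison each gene was named for, 426 of 428 values under the alternatives kept their direction and call, 2 lost the call and 0 reversed. These values include genes picked by the naming rule in the other backgrounds and not printed above. All were picked as called, mostly large changes from the same libraries, so the agreement was favoured in advance. It does not extend to other genes. The 2 lost calls, both with the intermediate libraries left out, were those of TraesCS6A02G319600 (-1.62) and TraesCS1D02G413300 (-4.37). Calls of named genes in further tests were also lost in that setting, as given for the tests of a difference above. That setting, chosen after the data were seen, moved most counts: temperature added to CO2 from 10601 to 1945 genes (858 higher, 1087 lower, 347 lower by at least 1), the interaction with CO2 from 7888 to 992, temperature alone from 7525 to 2089, with drought from 19697 to 10423, with CO2 and drought from 19155 to 9171, and the drought dependence from 9277 to 1799. The counts in all 4 backgrounds became 41 and 33, rises and falls in the top 100 26 and 3, in the top 1000 69 and 65, in the lowest bin 189 and 113, and in the highest 195 and 418. By construction the fit has fewer libraries and keeps the 2 of a group that lie farther apart. How much of the drop comes from either was not tested.

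Library quality weights raised the same 6 totals to 21975 (9647 higher, 12328 lower), 19591, 19020, 33272, 40472 and 27446, and the cause was not tested. On values as deposited, the intermediate library had the highest weight within each of its 7 groups. The weights were 1.4 in CO2, 1.86 in CO2+temperature, 16.4 in CO2+drought, 83.2 in temperature+drought and 211 under all 3 treatments. The weighted totals therefore lean on libraries whose independence was not tested. A fit to only the 6 libraries compared gave 16384 genes (6635 higher, 9749 lower). The like fit gave 7275 for temperature alone, 14991 with drought and 13962 with CO2 and drought. The order therefore turned: with all 24 libraries both totals with drought were above that under CO2. The fit to all 24 libraries pools the spread of groups that differed. Their root mean square SD in log2 units ran from 0.141 in CO2 and 0.163 in CO2+temperature to 0.305 in CO2+temperature+drought. Whether this moved the totals was not tested. For temperature added to CO2, a pseudocount of 0.1 gave 1022 rises and 1467 falls of at least 1, since it compresses low genes less. Leaving out each library in turn gave 7446 to 8051 genes for temperature added to CO2. The count of genes listed at 0 in CO2 was 6 at a minimum of 2 FPKM, and that in CO2+temperature was 2 at 0.5 FPKM, 0 at 2 FPKM, and 1 to 4 when each library was left out.

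The replicate numbers paired the libraries weakly at most. Deviations of same-numbered libraries of the 2 groups correlated at 0.0179 to 0.0353, and those of differently numbered libraries at -0.0278 to 0.0101. With a replicate block 10758 genes were called for temperature added to CO2 and 8059 for the interaction. No call of a named gene changed in the comparison it was named for, and its other calls were not checked with the block. Depth could not be read from FPKM, so low genes carry an unknown counting error.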

Other observations

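In 5 of the other 6 groups, control being the exception, 1 library also lay between the other 2. In CO2+drought, replicate 3 lay between replicates 1 and 2 for 99.6% of 1394 genes that differed at least 2-fold, at a median position of 0.518 (quartiles 0.463 and 0.578). In temperature+drought it was replicate 3 (97.7% of 2736 genes, median 0.686), under all 3 treatments replicate 2 (98.9% of 2866 genes, median 0.274), in temperature replicate 2 (97.9% of 1052 genes, median 0.337) and in drought replicate 2 (98.5% of 609 genes, median 0.601). The ratio of the spread around the mean of the other 2 to the spread between them was lowest in CO2+drought, at 0.199.

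Among falls, further runs of neighbouring genes lay on chromosome 5B (5 tested genes, median change -2.79) and 5A (3 genes, median -3.30), beside the 5D run described above.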
